A study of Rattus norvegicus with 36 samples.

Results

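Sat1, Odc1, Amd1, Srm, Sms and Oaz1, 6 genes of polyamine metabolism, were followed in rat liver after dosing with hexabromocyclododecane (HBCD), a brominated flame retardant. They were taken as every probe set (a group of short probes for 1 transcript on an Affymetrix array) that the platform annotation gives the symbol of 1 of these genes. That gave 7 probe sets of 31042 tested, or 6 genes of 14217, with a pair of probe sets for Sms and 1 for each other gene. No probe set annotated to several genes held any of the 6. The genes were chosen from earlier results of these arrays, and which of those values were used is not recorded, so each difference between dose groups given for them is a description and carries no p-value.

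The animals were male Sprague Dawley rats of 7 weeks, with no genetic change stated, and all of them received daily oral gavage of corn oil at 5 ml per kg of body weight for 5 days. The 36 arrays fell into 6 groups of 6, which received corn oil alone (vehicle) or HBCD in corn oil at 0.06 mg/kg, 0.641 mg/kg, 6.41 mg/kg, 64.1 mg/kg and 641 mg/kg. RNA came from the left liver lobe, collected 1 day after the last dose. Whether every array stands for a rat of its own is not stated in the labels, so a p-value here refers to the variation among these samples, part of which may be technical.

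Polyamines are small, positively charged amines that bind nucleic acids and are needed for cell growth. Ornithine decarboxylase (Odc1) makes putrescine from ornithine, S-adenosylmethionine decarboxylase (Amd1) makes the aminopropyl donor, and spermidine synthase (Srm) and spermine synthase (Sms) use that donor to lengthen putrescine to spermidine and then to spermine. Spermidine/spermine N1-acetyltransferase (Sat1) acetylates the longer polyamines so that they can be oxidised or exported, and antizyme (Oaz1) binds ornithine decarboxylase, directs it to the proteasome and restrains polyamine uptake. Odc1, Amd1, Sat1 and Oaz1 are also controlled at translation or protein turnover, which transcript arrays do not measure.

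At 641 mg/kg, the transcript of the acetylating enzyme Sat1 was 1.40-fold lower than with vehicle. That of spermine synthase was 1.30-fold higher on 1 of its probe sets and 1.21-fold higher on the other. The transcripts of the enzymes earlier in synthesis and of antizyme stayed closer to vehicle: Odc1, Srm and Oaz1 differed by factors of 1.04, 1.03 and 0.977, and Amd1 by a factor of 1.18. Within dose groups, arrays with more Srm tended to have more Odc1, less Sat1 and less Oaz1. The relation with Oaz1 no longer passed its test once each array was centred on its own median.

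Sat1 (Entrez gene 302642) is measured by 1 probe set, and all values below are log2 RMA values, a background-corrected and between-array normalised scale on which a difference of 1 is a doubling. At 641 mg/kg the lowest, median and highest Sat1 values were 9.39, 9.70 and 9.82, against 9.99, 10.09 and 10.34 with vehicle. All 6 arrays at 641 mg/kg therefore lay below all 6 vehicle arrays. The means were 9.64 ± 0.16 at 641 mg/kg and 10.13 ± 0.12 with vehicle (SD, n = 6 each), a log2 difference of -0.48 with a standard error of 0.079, or a factor of 0.716 (95% interval 0.640 to 0.801). At the intermediate doses the range of Sat1 overlapped that with vehicle. Sat1 ran from 9.77 to 10.31 at 0.06 mg/kg, from 9.97 to 10.23 at 0.641 mg/kg, from 10.09 to 10.30 at 6.41 mg/kg and from 9.86 to 10.18 at 64.1 mg/kg. The medians at 0.06 and 64.1 mg/kg, 9.97 and 9.95, lay below the lowest vehicle value. At 64.1 mg/kg the factor against vehicle was 0.911 (95% interval 0.815 to 1.02). The means at 0.06, 0.641, 6.41 and 64.1 mg/kg were 10.03, 10.05, 10.19 and 9.99, so the level did not fall step by step along the doses. In the order of the 6 group means of Sat1, 641 mg/kg came lowest and 6.41 mg/kg highest, and the only neighbours with ranges that did not overlap were 641 and 64.1 mg/kg, which differed by a factor of 0.786 (95% interval 0.703 to 0.879).

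**Figure D1:**
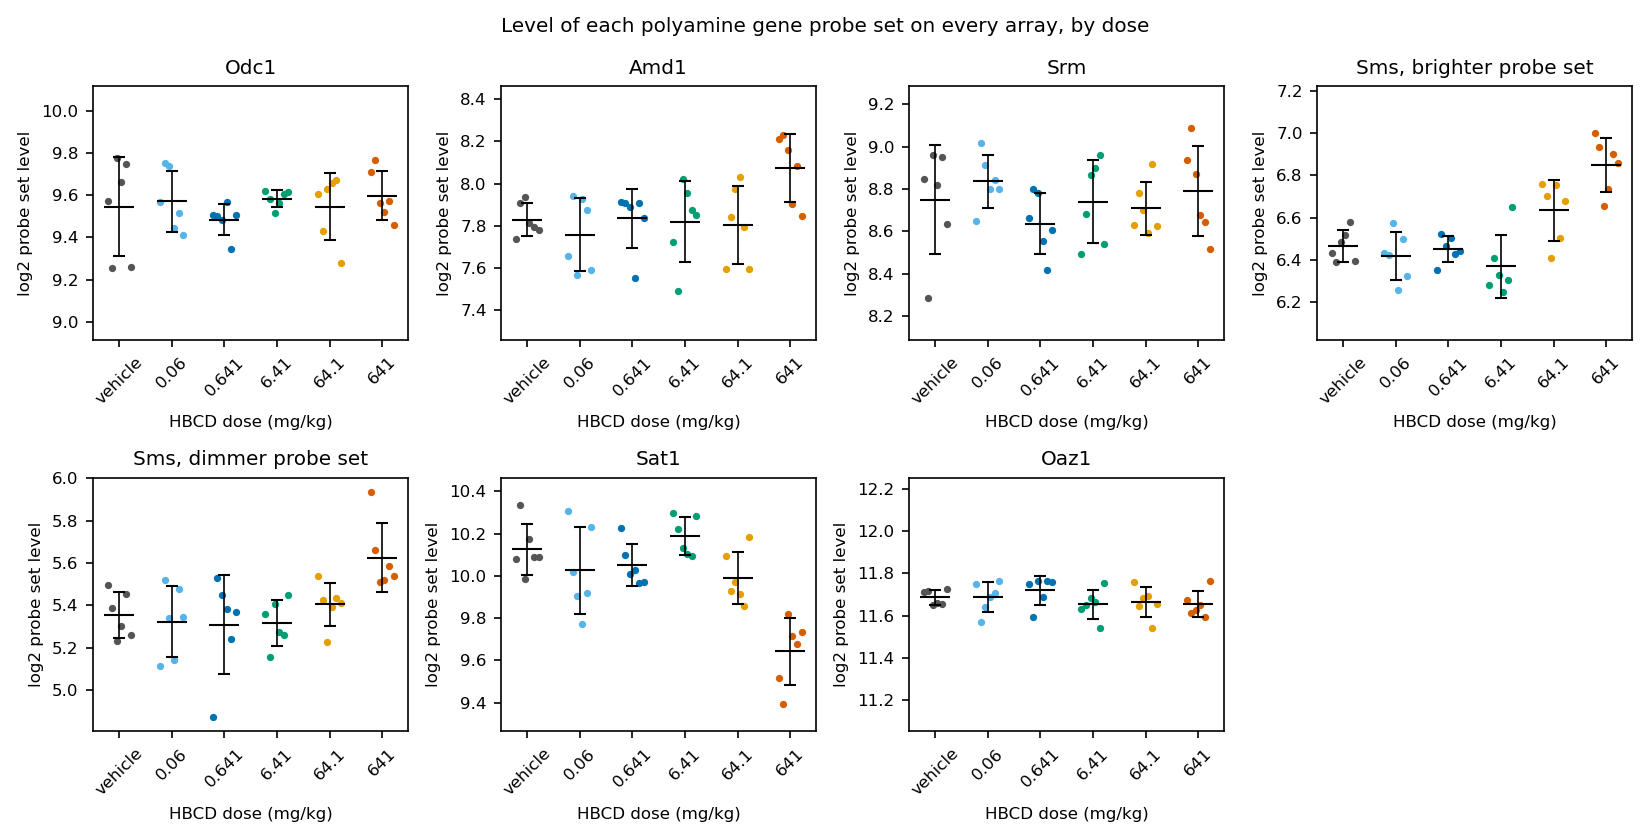
Log2 RMA value of each of the 7 probe sets (1 panel each, the vertical axis of every panel spanning the same log2 distance) by dose of HBCD in mg/kg, with vehicle at the low end of the dose axis. Points are the 6 arrays of a group and bars are the group mean with its SD. The Sat1 points at 641 mg/kg, between 9.39 and 9.82, all lie under the vehicle points, and the points of both Sms probe sets at 641 mg/kg all lie above them.

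Spermine synthase (Entrez gene 363469), the last enzyme of synthesis, has a pair of probe sets, called the brighter and the dimmer here by their average over all arrays. On the brighter the lowest, median and highest values were 6.66, 6.88 and 7.00 at 641 mg/kg, against 6.39, 6.46 and 6.58 with vehicle. On the dimmer they were 5.51, 5.56 and 5.94 at 641 mg/kg, against 5.23, 5.34 and 5.50 with vehicle. On both probe sets all 6 arrays at 641 mg/kg lay above all 6 vehicle arrays. The factors were 1.30 (95% interval 1.18 to 1.43) on the brighter and 1.21 (1.07 to 1.36) on the dimmer. The dimmer probe set has an average over all arrays of 5.39, where the medians of the arrays over all probe sets lay between 4.829 and 4.899, so it sits nearer to the background. The brighter probe set also stood above vehicle at 64.1 mg/kg, by a factor of 1.12 (1.02 to 1.24), with values of 6.41, 6.69 and 6.76 (lowest, median and highest) that overlapped the vehicle range. The dimmer was at a factor of 1.03 at 64.1 mg/kg, with an interval (0.915 to 1.17) that spans 1. At 0.06, 0.641 and 6.41 mg/kg the means of the brighter probe set were 6.42, 6.45 and 6.37, close to the vehicle mean of 6.47 and in no dose order. The pair moved together from array to array: the correlation of their deviations from the group means over 36 arrays was 0.51.

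S-adenosylmethionine decarboxylase, which makes the donor that both synthases use, is encoded by Amd1 (Entrez gene 81640). Amd1 had 7.85, 8.12 and 8.23 (lowest, median and highest) at 641 mg/kg, against 7.74, 7.80 and 7.94 with vehicle. Of the 6 arrays at 641 mg/kg, 4 lay above every vehicle array and the others lay within the vehicle range, and the factor was 1.18 (95% interval 1.04 to 1.34). From 0.06 to 64.1 mg/kg the Amd1 means lay between 7.76 and 7.84, next to 7.83 with vehicle.

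Ornithine decarboxylase, usually regarded as the controlling step of synthesis, is encoded by Odc1 (Entrez gene 24609). Odc1 had 9.46, 9.57 and 9.77 (lowest, median and highest) at 641 mg/kg, against 9.26, 9.62 and 9.78 with vehicle. The arrays at 641 mg/kg lay within the vehicle range, and the factor of 1.04 had an interval of 0.925 to 1.16. The spread of Odc1 itself varied between groups, with an SD of 0.23 among the vehicle arrays and 0.040 at 6.41 mg/kg.

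Spermidine synthase is encoded by Srm (Entrez gene 84596). Srm had 8.52, 8.77 and 9.09 (lowest, median and highest) at 641 mg/kg, against 8.29, 8.83 and 8.96 with vehicle. The ranges overlapped, with 1 array at 641 mg/kg above every vehicle array, and the factor of 1.03 had an interval of 0.890 to 1.19. The SD of Srm within groups was 0.183, larger than that of 81.0% of all probe sets.

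Antizyme, the inhibitor protein, is encoded by Oaz1 (Entrez gene 25502). Oaz1 had 11.59, 11.64 and 11.76 (lowest, median and highest) at 641 mg/kg, against 11.65, 11.69 and 11.73 with vehicle. The vehicle range lay inside the range at 641 mg/kg, and the factor was 0.977 with an interval of 0.918 to 1.04. Oaz1 was also the steadiest of the 6 transcripts from array to array, with an SD within groups of 0.0639, smaller than that of all but 1.57% of probe sets.

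**Figure D2:**
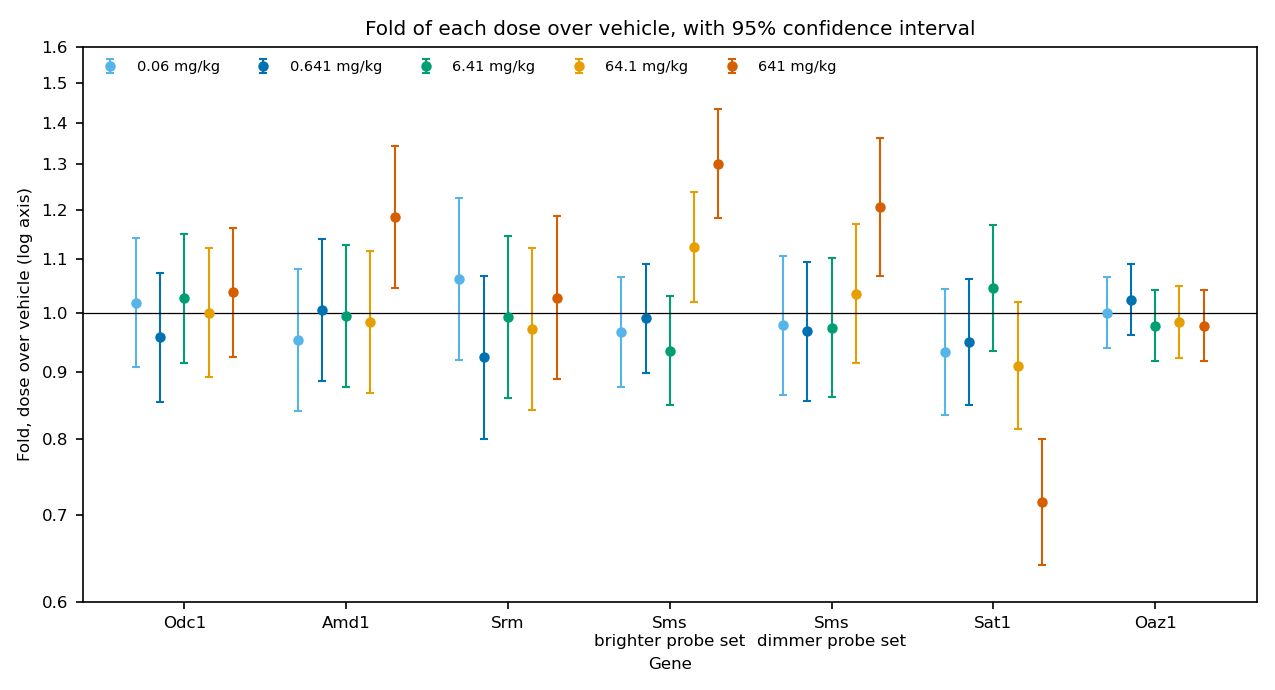
Fold of each of the 7 probe sets against vehicle (log axis) at each dose of HBCD, as points with 95% intervals from the fit over all 36 arrays. The Sat1 interval at 641 mg/kg, 0.640 to 0.801, lies under 1 and the interval of the brighter Sms probe set, 1.18 to 1.43, lies above 1, while those of Odc1, Srm and Oaz1 span 1.

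In a limma fit over all probe sets and arrays, a probe set was called where its Benjamini-Hochberg adjusted p, taken over the 31042 probe sets of a comparison, was under 0.05. At 641 mg/kg, 2 of the 7 probe sets were called, the brighter of Sms higher and Sat1 lower, where 1.65% of all probe sets were called (1.13% higher and 0.512% lower). With Amd1 and the dimmer Sms probe set, 4 of the 7 had an unadjusted p under 0.05, as did 3549 of the 31042. Since the genes were chosen with such results known, nothing is read from that comparison. At 64.1 mg/kg none of the 7 was called, where 0.0419% of all probe sets were, and 1 of the 7, the brighter of Sms, had an unadjusted p under 0.05, as did 1843 of the 31042. At 0.06, 0.641 and 6.41 mg/kg no probe set of any gene was called and none of the 7 had an unadjusted p under 0.05, against 1293, 1477 and 1282 of all probe sets. Between 641 and 64.1 mg/kg only Sat1 of the 7 was called, lower at 641 mg/kg, where 0.242% of all were (0.0515% lower). An unadjusted p under 0.05 was seen there in 4 of the 7 and in 2839 of the 31042. The Sat1 call between 641 and 64.1 mg/kg depended on the settings and held in 19 of 44 alternatives. Both calls at 641 mg/kg against vehicle held in 44 of 44, of which 36 left out 1 array. Leaving out an array of neither group compared changes the shared spread but not the factor. Sat1 lay between 0.699 and 0.741 of the vehicle level. Sms lay between 1.25 and 1.34 times that level. The value of 1.25 is the mean of both Sms probe sets, which 1 alternative took in place of the brighter. In an F test over the 5 doses the same 2 probe sets were called as at 641 mg/kg, where 0.773% of all were. Groups without overlap between 641 mg/kg and vehicle, seen in 3 of the 7 probe sets, occurred in 1.71% of all probe sets (1.06% higher and 0.654% lower), and the 1 case between 641 and 64.1 mg/kg stands beside 0.699% (0.287% lower).

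Liver is a mixed tissue, and in such bulk samples fewer cells of a type and less RNA per cell cannot be told apart. The hepatocyte markers measured (5 of 6, albumin among them) averaged between 13.30 and 13.42 per array at 641 mg/kg, against 13.34 to 13.45 with vehicle. The macrophage markers (8 of 10) averaged between 8.22 and 8.65 per array at 641 mg/kg, against 8.43 to 8.77 with vehicle. At 64.1 mg/kg they averaged between 7.63 and 8.52. At that dose 8 of the 8 had an unadjusted p under 0.05 in limma, as did 1843 of the 31042 probe sets. None of the 8 was called. The median log2 difference at 641 mg/kg against vehicle was -0.22 over 4 neutrophil markers, -0.14 over 4 endothelial markers and 0.16 over 3 cholangiocyte markers, with none called, and between -0.15 and -0.0018 over the other 6 lists. Of 40 markers measured for 9 cell types, 9 had an unadjusted p under 0.05 in limma at 641 mg/kg. The same held for 3549 of the 31042 probe sets. Of the 40 markers, 1 was called at 641 mg/kg, or 2.5%, where 2.48% of all genes were. It was Cd8a of the T and NK lymphocyte list, which was lower; the median of the 6 genes of that list was -0.04, and the average level of each of the 6 lay below the median of every array. The difference between 3' and 5' probe sets of Gapdh, a measure of RNA integrity, was -0.023 ± 0.026 at 641 mg/kg and 0.004 ± 0.039 with vehicle (SD, n = 6 each; exact permutation test, two-sided, p = 0.180, adjusted 0.931 over 10 such comparisons). The same difference for actin was larger, at 1.14 ± 0.06 at 641 mg/kg and 1.17 ± 0.14 with vehicle (SD, n = 6 each). For actin the exact permutation test gave p = 0.597, adjusted 0.976. The part of cell mixture and RNA integrity in the values of Sat1, Sms and Amd1 was not tested.

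The 6 genes were next compared from array to array inside the dose groups, a measure that the dose contrasts do not enter. Each array's value was taken as its deviation from its group mean, and the 15 pairs of genes were tested over 36 arrays by permuting arrays within groups (100000 resamples, two-sided). Of the 15 pairs, 4 passed at an adjusted p under 0.05, by Pearson's r as by Spearman's rho, and all of them involved Srm or Oaz1. How often pairs of other genes pass on these arrays was not measured. The 4 pairs are therefore not shown to be particular to polyamine genes. Of the enzymes earlier in synthesis, Odc1 and Srm moved together. Amd1 passed with neither, at r = 0.17 with Odc1 and r = 0.34 with Srm. Odc1 and Srm correlated at r = 0.59 (permutation p = 0.00039, adjusted 0.00292) and rho = 0.53 (p = 0.00154, adjusted 0.0077), and r was 0.50 without the 2 arrays farthest out. The sign was positive in 5 of 6 groups, from 0.92 at 641 mg/kg and 0.89 with vehicle to -0.56 at 6.41 mg/kg, the group in which Odc1 hardly varied.

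Srm ran against Sat1 and against Oaz1, the catabolic enzyme and the inhibitor. For Sat1 and Srm, r was -0.55 (permutation p = 0.00076, adjusted 0.0038) and rho was -0.55 (adjusted 0.0077), with r = -0.45 without the 2 arrays farthest out. The sign was negative in 5 of 6 groups, from -0.997 at 6.41 mg/kg to 0.40 at 0.641 mg/kg. For Srm and Oaz1, r was -0.56 (permutation p = 0.00017, adjusted 0.00255) and rho was -0.58 (adjusted 0.0057), negative in 6 of 6 groups, with r = -0.59 without the 2 arrays farthest out. For Odc1 and Oaz1, r was -0.41 (permutation p = 0.00841, adjusted 0.0315) and rho was -0.46 (adjusted 0.0225), also negative in 6 of 6 groups, with r = -0.39 without the 2 arrays farthest out. Both relations with Oaz1 missed the threshold once each array was centred on its own median, at r = -0.39 (permutation, adjusted p = 0.0712) for Srm and r = -0.31 (permutation, adjusted p = 0.107) for Odc1, while the relations of Srm with Odc1 and Sat1 passed at r = 0.63 and -0.48. The nearest of the pairs that did not pass was Sat1 and Amd1, at r = -0.42 (permutation, adjusted p = 0.0646). Sms, by its brighter probe set, correlated with Srm at 0.02 and with Sat1 at -0.09, although Sms and Sat1 were the 2 genes called at the highest dose.

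**Figure D3:**
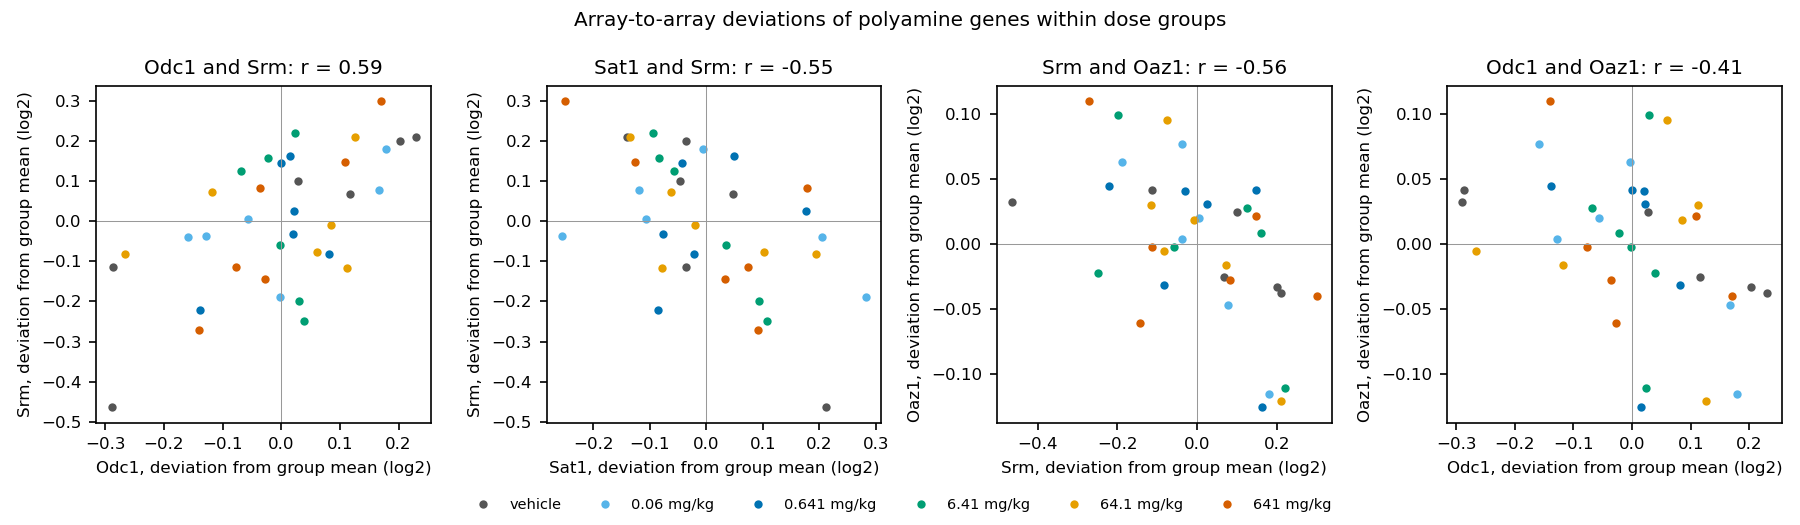
Deviation of each array from its group mean (log2) for the 4 pairs of genes that passed, 36 points per panel, coloured by dose group. Srm rises with Odc1 (r = 0.59) and falls with Sat1 (r = -0.55), Oaz1 falls with Srm (r = -0.56) and with Odc1 (r = -0.41), and the vertical range of Oaz1 is the narrowest.

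The promoters of the 4 genes that moved together or against each other were read as the 250 bases before the RefSeq start of each gene in GRCr8, 5′ to 3′ on the gene's strand. Capitals mark matches on either strand to the E-box CACGTG (bound by Myc and Max among others), the TATA box TATAA, the CCAAT box CCAAT and the GC box GGGCGG. In these 4 sequences no match overlaps another.
Odc1, chr6:46058415-46058664, plus strand: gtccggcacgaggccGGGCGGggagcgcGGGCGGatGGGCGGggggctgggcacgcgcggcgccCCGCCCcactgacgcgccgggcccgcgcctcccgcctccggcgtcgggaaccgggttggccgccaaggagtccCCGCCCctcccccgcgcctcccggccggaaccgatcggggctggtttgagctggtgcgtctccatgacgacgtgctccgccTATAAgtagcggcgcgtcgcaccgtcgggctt
Srm, chr5:164308752-164309001, plus strand: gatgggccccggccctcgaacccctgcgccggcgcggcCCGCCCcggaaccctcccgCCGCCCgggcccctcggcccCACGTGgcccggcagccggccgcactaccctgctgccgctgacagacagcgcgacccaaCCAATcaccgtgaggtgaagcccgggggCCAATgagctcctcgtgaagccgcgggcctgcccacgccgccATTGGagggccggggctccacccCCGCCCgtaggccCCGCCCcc
Sat1, chrX:44007839-44008088, plus strand: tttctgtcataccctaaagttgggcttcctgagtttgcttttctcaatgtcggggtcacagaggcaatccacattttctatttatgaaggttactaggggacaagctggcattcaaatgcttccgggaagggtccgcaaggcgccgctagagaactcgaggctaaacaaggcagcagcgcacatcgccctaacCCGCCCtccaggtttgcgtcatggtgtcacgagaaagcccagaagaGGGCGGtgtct
Oaz1, chr7:9536991-9537240, minus strand: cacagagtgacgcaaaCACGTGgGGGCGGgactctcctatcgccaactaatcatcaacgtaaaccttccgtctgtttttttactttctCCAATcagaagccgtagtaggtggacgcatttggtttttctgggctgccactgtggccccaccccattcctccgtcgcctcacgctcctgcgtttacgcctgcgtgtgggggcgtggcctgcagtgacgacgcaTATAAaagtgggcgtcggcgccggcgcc
Over 33469 promoter windows of the same length in the table, 5.59% hold CACGTG, 24.0% TATAA, 34.0% CCAAT and 30.5% GGGCGG.

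Srm and Oaz1, which ran against each other, both hold 1 E-box, whose first base lies 173 bases before the Srm start and 234 bases before the Oaz1 start. Odc1, which ran with Srm, holds none in this window, and its 5 GC boxes come with a TATA box 32 bases before the start. Srm has no TATAA but 3 CCAAT boxes and 4 GC boxes, and Odc1 and Srm are the richest in G and C, at 78.0% and 78.4%, against 52.8% for Sat1 and 58.0% for Oaz1. Sat1 holds 2 GC boxes and none of the other motifs. The Amd1 window holds 2 overlapping TATAA matches on opposite strands 32 and 29 bases before the start, and the Sms window holds 3 GC boxes, of which 2 share a base. Sat1 and Sms both lie on chromosome X, and nothing about their levels is read from that. No match is shown to be a binding site by these data.

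For each gene, the transcripts most alike over all 36 arrays, differences between dose groups included, were looked up among 9144 probe sets of 7413 genes, as a description. Sat1 was most like Ypel3 (r = 0.85), followed by Plekhb1 (0.78) and Fabp7 (0.76). Within the dose groups these values were 0.79, 0.46 and 0.42. Srm was most like Ebna1bp2 (0.89), Ppp1r14b (0.87) and Mrto4 (0.82), and each of these 3 kept an r of at least 0.84 to Srm within the dose groups. Odc1 was most like Cmas (0.72), Actl6a (0.70) and Ppp2cb (0.68), and Amd1 like Gtf2h1 (0.75), Pir (0.74) and Nprl2 (0.69). Sms was most like Mlec, Blvrb and Zdhhc2 (0.78 each). For Blvrb the value within the dose groups was 0.15, so that likeness rests on differences between groups. For Mlec and Zdhhc2 it was 0.47 and 0.53. Oaz1 was most like Ndufb11 (0.75), Ttc23 (0.71) and Pnp (0.67).

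The rest of the polyamine pathway was taken from a list of 34 genes, of which 32 were measured. At 641 mg/kg 2 of the 32 were higher and 1 was lower, or 9.38%, where 2.48% of all genes were called, each by its brightest probe set (1.74% higher and 0.739% lower). The list was drawn up with earlier results of these arrays known, so its counts and shares are a description, and the adjusted p-values given for its genes are no independent evidence. The median log2 difference over the 32 genes was 0.0034, against -0.0073 over all probe sets. In limma, none of the 32 was called at a lower dose or between 641 and 64.1 mg/kg. Of all genes, 0.0703% were called at 64.1 mg/kg, none at the other lower doses and 0.38% between 641 and 64.1 mg/kg. An unadjusted p under 0.05 was seen in 10 of the 32 at 641 mg/kg and in 3549 of the 31042 probe sets. At 0.06, 0.641, 6.41 and 64.1 mg/kg it was seen in 1, 1, 0 and 0 of the 32. Over all probe sets the counts there were 1293, 1477, 1282 and 1843. Between 641 and 64.1 mg/kg it was seen in 3 of the 32 and in 2839 of all probe sets.

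Among the genes that supply ornithine and S-adenosylmethionine, Oat fell and none of the other 6 passed. Ornithine aminotransferase (Oat) draws ornithine away from Odc1 toward glutamate and proline. Oat had 8.91, 9.55 and 9.92 (lowest, median and highest) at 641 mg/kg, against 10.03, 10.36 and 10.75 with vehicle, without overlap. It was 1.79-fold lower (95% interval 1.39 to 2.30; limma, adjusted p = 0.00727). At the lower doses the Oat means lay between 10.09 and 10.36, near the vehicle mean of 10.37. Agmatinase (Agmat), which in bacteria makes putrescine from agmatine, was at a factor of 0.886 and missed the threshold (limma, adjusted p = 0.0787), although it passed under 4 other settings and without either of 2 single arrays (vehicle replicate 4, replicate 2 at 641 mg/kg).

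In the methylthioadenosine salvage list, which recycles the by-product of Srm and Sms, Mtap rose and none of the other 4 passed, and the median log2 difference of the 5 genes was 0.13. Methylthioadenosine phosphorylase (Mtap), the first enzyme of that salvage, averaged 7.33 ± 0.15 at 641 mg/kg and 7.05 ± 0.08 with vehicle (SD, n = 6 each) on its brightest probe set, a factor of 1.22 (95% interval 1.11 to 1.34; limma, adjusted p = 0.0192). Its other probe sets were at factors of 1.17 and 0.967 and did not pass, and Mtap missed the threshold without vehicle replicate 3 (limma, adjusted p = 0.0638) or replicate 2 at 641 mg/kg (0.0722). Of the 3 transcription factors listed for Odc1 and Sat1, Myc rose, while Max and Nfe2l2 did not pass. Myc, which is known to activate Odc1 through E-boxes, had 7.79, 8.68 and 9.03 (lowest, median and highest) at 641 mg/kg, against 6.77, 7.20 and 8.38 with vehicle, a factor of 2.30 (95% interval 1.50 to 3.55; limma, adjusted p = 0.0322). The Myc ranges overlapped, its vehicle arrays spread with an SD of 0.64, and Odc1 itself was at a factor of 1.04. Myc missed the threshold when any 1 of 8 arrays was left out (limma, adjusted p from 0.05002 to 0.0933), namely vehicle replicates 1, 3, 4 and 5 and replicates 1, 2, 3 and 5 at 641 mg/kg, so that Oat alone of the 3 was called without vehicle replicate 3.

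The other lists had no gene called at 641 mg/kg. Of 4 genes of polyamine catabolism, Sat2, a relative of Sat1, had the smallest p, at a factor of 0.832 (95% interval 0.732 to 0.945; limma, adjusted p = 0.159). Of 4 genes of the antizyme family and its inhibitors, Oaz2 came first at 1.07 (0.995 to 1.14). Of 4 genes of the hypusine pathway, which uses spermidine to modify a translation factor, that factor itself, Eif5a, came first at 1.08 (1.00 to 1.17), and of 5 polyamine transport genes Slc18b1 came first at 1.09 (1.00 to 1.18). Smox and Paox, the oxidases that act after or beside Sat1, were at 0.976 and 1.08.

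**Figure D4:**
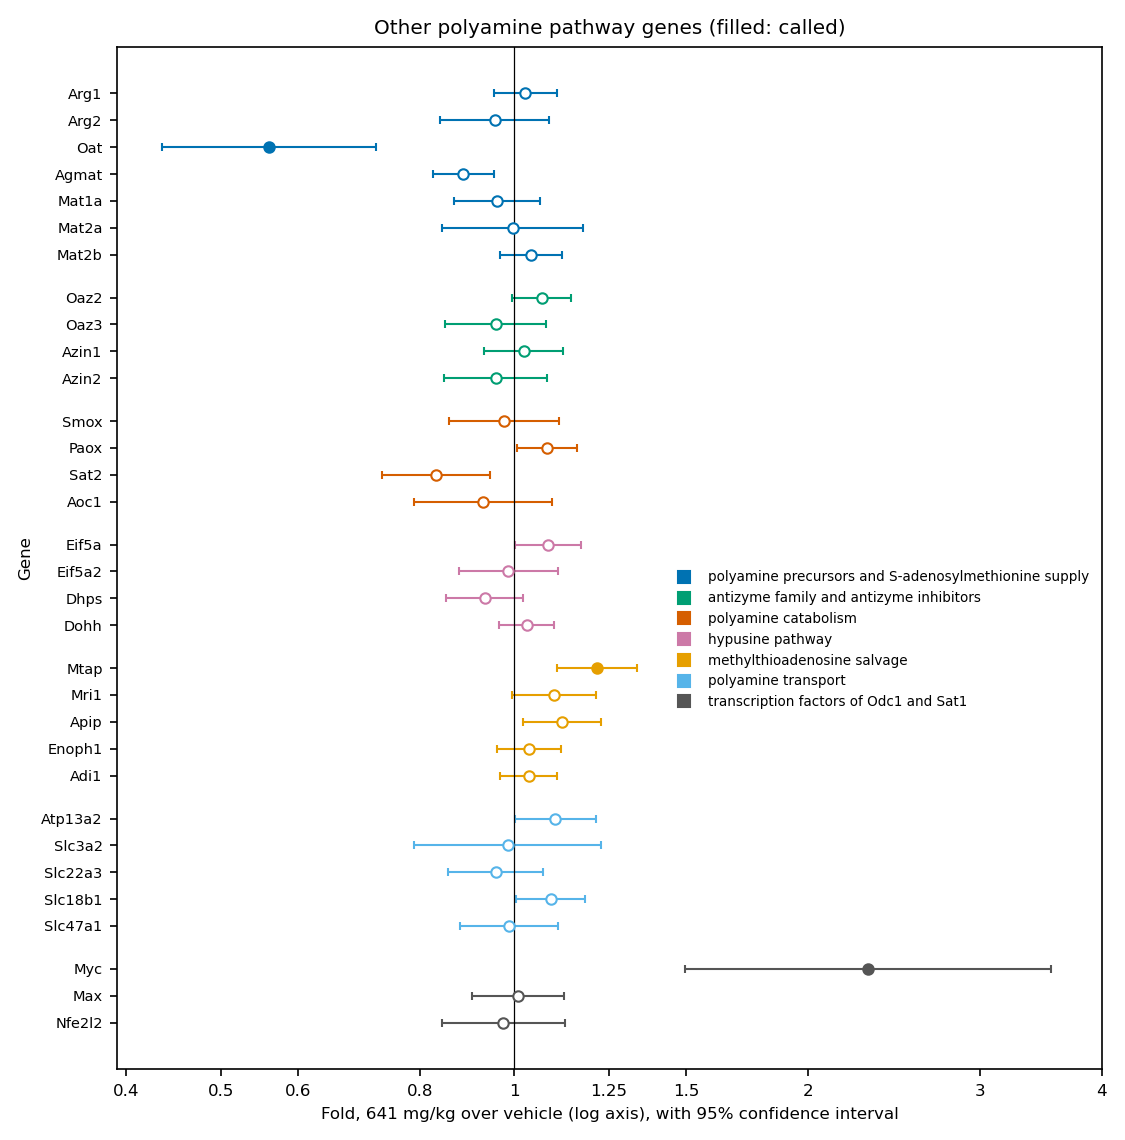
Fold of the 32 other measured pathway genes at 641 mg/kg against vehicle (log axis), 1 row per gene by its brightest probe set, coloured by list, with 95% intervals. The genes called, Oat at 1.79-fold lower, Mtap at 1.22 and Myc at 2.30, are filled, and the open points are genes that were not called.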

How the data were processed

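The deposited table gives 1 log2 value for each probe set and array; the authors used RMA and affy, per the submitters' processing notes; versions and settings are not given in the sources used here. RMA corrects the background, normalises between arrays and summarises probes, so small differences can be compressed. Of 31099 probe sets, 57 controls were left out. Symbols from the platform annotation were updated through RefSeq GRCr8 (20758 by gene ID, 2 by accession, 66 kept). Promoter sequences are from RefSeq (GRCr8) and matched 6 of 6 genes.

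The design text names R/maanova at a false discovery rate of 5%. Here limma 3.58.1 in R 4.3.3 fitted group as a single factor over all 36 arrays, with Benjamini-Hochberg adjustment over the 31042 probe sets of each comparison, two-sided. A gene on the pathway and marker lists was taken by its brightest probe set. Correlations used scipy 1.17.1. The number of arrays limits the precision, and the files hold no detection calls. On simulated data for 641 mg/kg against vehicle, with 200 of 31042 probe sets changed, the fit recovered 52% of changes of 1.25-fold, 98% of 1.5-fold and 99% of 2-fold. Arrays of a group correlated at 0.991 to 0.997, and none were identical. Genes named are the 6 members, the pathway genes called at any dose, the gene with the smallest p in each list with none called, and the 3 most alike genes per member; Agmat, Max, Nfe2l2, Smox, Paox and Cd8a were added after their values were seen. Members and lists were chosen with earlier results of these data known.

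The alternatives were a replicate block, median centring, repeated quantile normalisation, a filter on dim probe sets, trend and robust moderation, array weights, a fit of only the groups compared, gene means, and leaving out each array in turn.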

Additional observations from a re-analysis of the deposited data

Results flagged for a closer look

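Dixon's test for a sample apart was applied to the 42 sets of 6 arrays (7 probe sets in 6 groups), where chance marks about 1 in 20, and 3 were marked. In Amd1, replicate 4 at 0.641 mg/kg had 7.56 where the other 5 arrays lay between 7.84 and 7.92. In Odc1, replicate 5 at 0.641 mg/kg had 9.35 where the others lay between 9.48 and 9.57. In the dimmer Sms probe set, replicate 1 at 641 mg/kg had 5.94 where the others lay between 5.51 and 5.66. The brighter Sms probe set had no such array.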

How the results depend on the processing

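The calls of Sat1 and Sms at 641 mg/kg against vehicle kept their direction under all 44 alternatives, and both stayed called. Sms was taken by its brighter probe set or, with gene means, by the mean of both. Leaving out an array of another dose changed only the shared spread. Both genes were chosen from results of the same arrays, so this describes the settings and adds no evidence for the differences. Counts over all probe sets moved more. With only probe sets whose mean was at least 6 in 1 group, 28 were called at 64.1 mg/kg (13 in the fit of the report) and 374 in any dose (240). Trend and robust moderation called 24 at 64.1 mg/kg. A fit of only the 2 groups compared called 327 at 641 mg/kg (511), 5 at 64.1 mg/kg and 35 between 641 and 64.1 mg/kg (75), and gene means called 49 in the last. The cause of these moves was not tested. Leaving out 1 array at a time gave 335 to 550 at 641 mg/kg (lowest without replicate 2 at 641 mg/kg), 8 to 18 at 64.1 mg/kg (lowest without vehicle replicate 3 or replicate 4 at 64.1 mg/kg), 32 to 95 between 641 and 64.1 mg/kg (without replicates 2 and 6 at 641 mg/kg), 154 to 258 in any dose (lowest without replicate 2 at 641 mg/kg), 2 of the 7 member probe sets each time, and 1 to 3 pathway genes (1 without vehicle replicate 3). Mtap was not called in the 2-group fit, with gene means, or without vehicle replicate 3 or replicate 2 at 641 mg/kg; Myc was not called with trend and robust moderation or without any 1 of 8 arrays. After median centring, 2 of the 4 correlated pairs passed.

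Of 90 pairs of arrays with the same replicate number, 14 correlated above 0.1 in their deviations (median 0.025). Of 450 pairs with different numbers, 69 did (median -0.0017). These correlations cannot exclude a pairing by replicate number. With the replicate block, 500 probe sets were called at 641 mg/kg, 12 at 64.1 mg/kg, 64 between 641 and 64.1 mg/kg and 231 in any dose, and the calls of the 2 member probe sets and of 3 pathway genes did not change in number. Background correction could not be redone from RMA values. Dim probe sets, such as the dimmer of Sms, cannot be told from background without detection calls.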
